A study of Arabidopsis thaliana with 27 samples.

Results

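The genes described here are those whose transcripts were at least 3-fold more abundant at 3 hours after sowing (HAS) than in dry seeds in both dissected compartments of dormant (D) Arabidopsis thaliana seeds. MCE stands for the endosperm of the micropylar and chalazal ends, and RAD for the radicle with the hypocotyl. For each gene the mean log2 value of the 3 arrays of a group was taken, means below 4 were raised to 4 because values that low lie in the noise of the chip, and the difference from dry seeds had to reach 1.585, the log2 of 3, in both. This gave 135 of the 21313 genes measured, or 0.633%. Taken separately, 435 genes (2.04%) reached the difference in the MCE and 251 (1.18%) in the RAD. The arrays were those of freshly harvested seeds of the accession Cvi, which germinates poorly until it has been stored dry. The 9 groups, of 3 arrays each, were whole dry seeds and the 2 compartments cut from seeds imbibed in water for 3, 7, 12 or 24 h. All groups were of the same accession and dormancy state and received no treatment other than imbibition. Each group had 3 replicates, and the labels do not say which replicate of one group shares plants with which of another. The p-values therefore measure the spread between these samples.

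When a dry seed takes up water, respiration and transcription resume within hours, while the covering layers still limit the entry of oxygen. In non-dormant seeds this leads to radicle protrusion, but a dormant seed stays alive and metabolically active without completing germination. Transcripts known from touch, wounding and rapid stress responses, transcripts known from oxygen shortage, and transcripts of sulfate assimilation are each under well studied control in Arabidopsis seedlings, and all of these kinds occur among the 135 genes.

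The values compare 2 kinds of material. Dry seeds were whole, with cotyledons and seed coat, whereas the imbibed samples were dissected, so imbibition and dissection cannot be told apart in any difference from dry seeds. A kit was used to isolate RNA from the RAD, but a hot borate method for the other samples, so that isolation method and compartment cannot be told apart either. Differences of the RAD from dry seeds, which entered the choice of the genes, therefore also compare the 2 methods, whereas those of the MCE do not. In bulk tissue fewer cells of a type and less RNA per cell cannot be told apart. The endosperm marker EPR1 had mean log2 values of 13.65 to 13.79 in the MCE against 6.44 to 7.27 in the RAD. Of the other endosperm markers, ABI5 lay between 8.29 and 10.99, MAN5 between 4.21 and 5.3, and MAN7 reached 8.63 in the MCE and 6.51 in the RAD at 24 HAS. Of the 3 seed coat markers, BAN and TT10 were below 4.2 in all groups and TT12 lay between 4.53 and 5.05. The root meristem markers PLT1, PLT2 and SHR were below 5 in all groups, the RAD included, while SCR was above 6.5 in every imbibed group of both compartments. Replicate arrays correlated at 0.987 to 0.996 across genes, and array medians lay between 4.59 in dry seeds and 4.90 in the MCE at 24 HAS.

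Because the arrays of dry seeds and of 3 HAS chose the genes, their rise is a description and has no test. The rise ranged from 1.59 to 6.51 in the MCE, with a median of 2.83, and from 1.62 to 7.05 in the RAD, with a median of 2.64, on the log2 scale after the floor. In all 135 genes each of the 3 arrays at 3 HAS lay above each dry seed array in both compartments. These same arrays chose the genes, and the separation was not counted over all genes. The floor and the limit together require a mean above 5 at 3 HAS, so all 135 had one in both. In dry seeds 63 of them had a mean below 5 and 15 a mean below 4, so that for these the size of the rise depends on the noise of the chip and on the floor. The rise was at least 10-fold for 46 genes in the MCE and 35 in the RAD. The genes just inside the limit were AT3G02910 and VRN5, with a rise of 1.59 each in the MCE, and CAM2, with 1.60. Just outside were ACA1, with 1.58 in the RAD, and RPSAb and AT4G18650, with 1.57 and 1.56 in the MCE. When the genes were chosen on 2 of the replicate numbers and the rise was read in the arrays left out, 148, 134 and 135 genes were chosen, and in the arrays left out all of them were higher at 3 HAS than in dry seeds in both compartments. In those arrays the median rise was 2.64 to 2.92 for the MCE and 2.35 to 2.67 for the RAD. The share of all genes higher at 3 HAS in those arrays was not counted, and all arrays had been normalized together.

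The gene with the highest rise, taking for each gene the lower of its values in MCE and RAD, was AT3G19680, which has no symbol in the gene table used. Its log2 values were 4.12, 4.0 and 4.18 in dry seeds, 10.17, 10.31 and 10.51 in the MCE at 3 HAS and 10.31, 10.63 and 10.21 in the RAD at 3 HAS. All imbibed arrays at 3 HAS were thus far above the dry ones and close to each other. AT4G27280 followed, with a rise of 5.71 (MCE) and 5.70 (RAD), and then AT4G10270, with 5.6 and 7.05. AGP15, which encodes an arabinogalactan peptide of the cell surface, had a rise of 5.54 and 5.6. EXL5 and PHI-1, of the EXORDIUM family of secreted growth-related proteins, had a rise of 5.09 and 5.63 in the MCE and 5.49 and 5.07 in the RAD. The last of the 10 highest were ATSDI1, a repressor of glucosinolate synthesis under sulfur deficiency, LBD41, a transcription factor of the core response to low oxygen, TCH4, a xyloglucan endotransglucosylase/hydrolase, and AT4G27654. For 69 of the 135 genes the table gave no symbol.

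After 3 HAS the genes took different courses. A gene was called lasting in a compartment when its mean at 24 HAS was still at least 3-fold above dry seeds after the floor, transient when it was less than 2-fold above, and intermediate between. In the MCE 88 genes were lasting, 19 intermediate and 28 transient, and in the RAD 83, 23 and 29. The same arrays of dry seeds entered the choice of the genes, so these counts are a description. Among all genes 4.59% in the MCE and 5.71% in the RAD were at least 3-fold above dry seeds at 24 HAS. In both compartments 76 genes were lasting, 20 were transient and 8 were intermediate. Only 5 genes were lasting in one compartment and transient in the other. These were NPR3 and AT3G44190, lasting in the MCE, and LSU2, AT5G66985 and AT4G39675, lasting in the RAD. The highest of the 4 imbibed means fell at 3 HAS for 63 genes in the MCE and 69 in the RAD, at 7 HAS for 31 and 24, at 12 HAS for 1 and 7, and at 24 HAS for 40 and 35. Choosing genes by their level at 3 HAS favors a highest mean at that time, and such counts were not made over all genes.

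**Figure D1:**
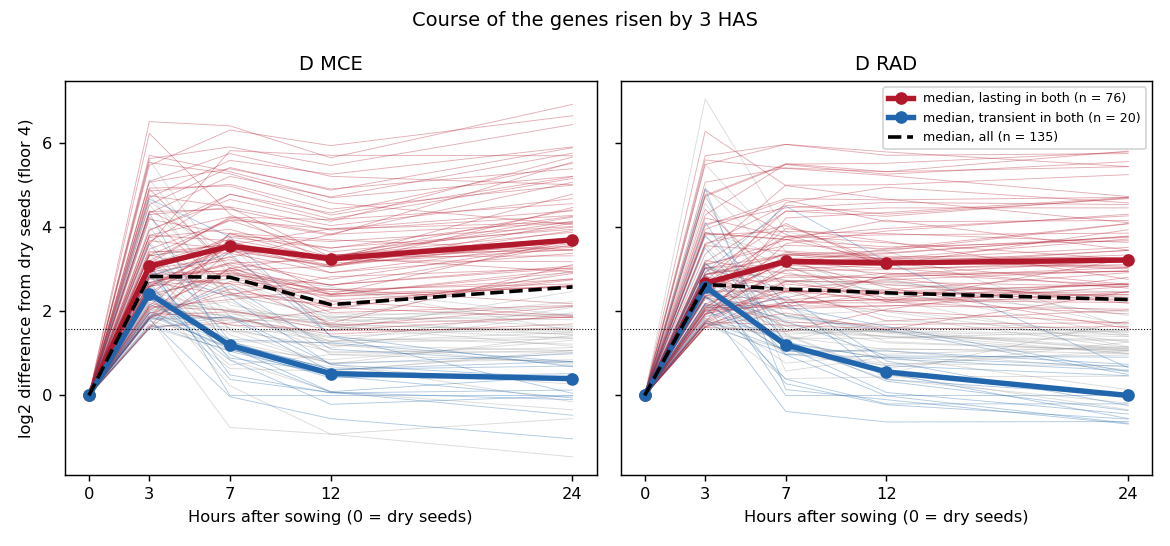
Difference of each of the 135 genes from dry seeds (log2, floor of 4) in the D MCE (left) and the D RAD (right) against hours after sowing, with thin lines for single genes, thick lines for the medians of the 76 genes lasting in both (red) and the 20 transient in both (blue), a dashed line for the median of all and a dotted line at 3-fold. At 24 HAS the red medians are 3.70 (MCE) and 3.22 (RAD), and the blue ones 0.40 and 0. The level at 24 HAS set these classes.

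The median excess over dry seeds of all 135 genes at 3, 7, 12 and 24 HAS was 2.83, 2.81, 2.16 and 2.58 in the MCE, and 2.64, 2.53, 2.44 and 2.28 in the RAD. Over all 21313 genes this median was 0 at each time in both. For the genes lasting in both, the median moved from 3.07 at 3 HAS to 3.55 at 7 HAS and 3.70 at 24 HAS in the MCE, and from 2.67 to 3.19 and 3.22 in the RAD. For the genes transient in both it went from 2.42 to 1.19 and 0.40 in the MCE. In the RAD it went from 2.59 to 1.20 and 0. More of this descent lay before 7 HAS than after it, by a small margin in the RAD. The level at 24 HAS set the classes, so their medians at that time follow from the sorting. Choosing genes that are high at 3 HAS also favors a fall right after it. At 24 HAS 32 genes in the MCE and 35 in the RAD were at least 3-fold below their own level at 3 HAS, beside 1.05% and 1.31% of all genes, and 11 and 9 were at least 3-fold above it, beside 2.24% and 2.64%. These changes share the arrays at 3 HAS with the choice of the genes and were not tested.

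The arrays at 7, 12 and 24 HAS played no part in the choice, and the changes between them were tested with limma over all 21313 genes (Benjamini-Hochberg adjusted p under 0.05). From 7 to 24 HAS in the MCE, 39 of the 135 genes were lower at 24 HAS, where 9.0% of all genes were, and 12 were higher, where 9.32% of all genes were. Of these, 8 were at least 3-fold lower, beside 0.286% of all genes, and none was at least 3-fold higher, beside 0.493%. In the RAD 44 genes were lower, beside 8.54% of all genes, and 4 were higher, beside 11.9%. Here 13 were at least 3-fold lower, beside 0.521%, and again none was at least 3-fold higher, beside 0.511%. For the MCE the median change of the 135 genes was -0.13 and for the RAD -0.26, whereas that of all genes was -0.02 and -0.01. Among the 11717 genes with a mean above 5 in an imbibed group, 15.8% were higher and 15.4% lower in the MCE, and 19.1% higher and 14.1% lower in the RAD. When each array of the groups compared was left out in turn, 32 of the 39 lower calls in the MCE and 35 of the 44 in the RAD were kept every time, but only 3 of the 12 higher calls in the MCE were. That count of 12 was 5 without replicate 2 of 7 HAS or replicate 2 of 24 HAS, 7 without replicate 3 of 24 HAS and 19 without replicate 1 of 24 HAS. The 8 decreases of at least 3-fold in the MCE became 5 without replicate 1 of 7 HAS.

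The step from 7 to 12 HAS and the next one differed in direction in the MCE. Both steps use the same 3 arrays of 12 HAS, so the opposite directions are not independent results. Low values in those arrays would enter both steps. The steps in the RAD share arrays in the same way. From 7 to 12 HAS 41 genes were lower in the MCE, beside 5.62% of all genes, and 0 were higher, beside 6.42%. From 12 to 24 HAS 23 were higher, beside 2.86%, and 6 lower, beside 1.42%. In the RAD 19 were lower from 7 to 12 HAS, beside 2.74%, and 0 were higher, beside 2.36%. From 12 to 24 HAS 21 were lower there, beside 3.3%, and 4 higher, beside 6.68%. The count of 23 rested on few arrays, since it was 5 without replicate 2 and 7 without replicate 3 of the MCE at 24 HAS, 10 without replicate 1 and 13 without replicate 3 of 12 HAS, and 33 without replicate 1 of 24 HAS. The 6 lower calls became 2 without replicate 2 of 24 HAS and 3 without replicate 1 or replicate 2 of 12 HAS or replicate 3 of 24 HAS, and the 4 higher calls in the RAD were 2 to 7, with 7 without replicate 3 of 12 HAS and 2 without replicate 1 of 12 HAS or replicate 1 or replicate 3 of 24 HAS. The count of 41 was 25 without replicate 3 of 12 HAS and 27 without replicate 1 of 7 HAS, and the count of 19 in the RAD was 10 without replicate 2 of either time. In a fit of the MCE arrays alone, the replicate number as a block raised the lower calls of the first step from 36 to 57 and the higher calls of the second from 15 to 30. Replicate 1 of the MCE at 24 HAS was the lowest of the 3 arrays for 92 of the 135 genes, with a median deviation of -0.26 from the group mean.

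Touch and rapid stress genes stayed high. Of 40 measured genes of this list, 9 were among the 135, and all 9 were lasting in both compartments. They were TCH4, the calmodulin-like TCH2, the membrane-associated BAP1, the deadenylase subunits CAF1a and CAF1b, the zinc finger proteins SZF1, RHL41 (ZAT12) and STZ (ZAT10), and the ERF-type transcription factor AT5G51190 (ERF105). Their median excess over dry seeds was 3.65, 4.43, 3.93 and 4.28 at 3, 7, 12 and 24 HAS in the MCE and 2.42, 3.61, 3.91 and 4.16 in the RAD.

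TCH4 had log2 values of 3.46, 3.83 and 3.60 in dry seeds and of 10.22, 10.48 and 10.83 in the MCE at 3 HAS. At 24 HAS they were 10.07, 11.19 and 11.51 in the MCE and 9.84, 9.60 and 9.99 in the RAD. The arrays of 3 and 24 HAS overlapped in the MCE, and those of the RAD at 24 HAS, although high, all lay below those of the MCE. TCH4 differed between 7 and 24 HAS by 0.51 ± 0.28 (SE) in the MCE and 0.30 ± 0.28 in the RAD, with limma's adjusted p of 0.262 and 0.542 (n = 3 arrays per group). Without replicate 1 of the MCE at 24 HAS the difference there was 0.93, with an adjusted p of 0.0108. At 24 HAS the MCE exceeded the RAD in TCH4 by 1.11 ± 0.28 (adjusted p = 0.00208).

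CAF1b, part of the complex that shortens the poly(A) tails of mRNAs, was the only one of the 9 past the test from 7 to 24 HAS. Its log2 values were 8.39, 9.04 and 9.15 at 7 HAS and 9.28, 10.19 and 10.15 at 24 HAS in the MCE, and 6.81, 7.43 and 7.37 at 7 HAS and 8.33, 7.86 and 8.22 at 24 HAS in the RAD. In both compartments the 3 later arrays lay above the 3 earlier ones. The increase was 1.01 ± 0.29 in the MCE (limma, adjusted p = 0.0134) and 0.93 ± 0.29 in the RAD (adjusted p = 0.021), and both calls were lost when single arrays were left out, with adjusted p values up to 0.104 and 0.126. For CAF1b the MCE exceeded the RAD at 24 HAS by 1.73 ± 0.29 (adjusted p = 1.96e-05). Of the 40 genes of the touch list, 8 were higher and 1 lower at 24 than at 7 HAS in the MCE, and 5 were higher and 3 lower in the RAD, beside 9.32% and 9.0% of all genes in the former and 11.9% and 8.54% in the latter. The list median was 0.36 and 0.25, against medians near 0 for all genes.

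Transcripts of growth-related proteins of the cell surface were mostly lasting too, as were 76 of all 135 genes. This group, the EXORDIUM family and the arabinogalactan proteins, was drawn up after the values had been seen. Of 8 measured EXORDIUM family genes 3 were among the 135, namely EXO, EXL5 and PHI-1, and all 3 were lasting in both. From 7 to 24 HAS 2 of the 8 rose and 1 fell in the MCE, and 1 rose and 2 fell in the RAD. The shares of all genes are those given for the touch list. EXO itself had log2 values of 4.36, 4.95 and 4.91 in dry seeds, 7.3, 8.02 and 8.50 in the MCE at 3 HAS and 8.86, 11.02 and 10.98 at 24 HAS. Its replicate 1 at 24 HAS lay far below the other arrays of that group, and the array-to-array spread there was 1.23 (SD, n = 3). EXO increased between 7 and 24 HAS by 1.33 ± 0.39 in the MCE (limma, adjusted p = 0.0156) and differed by 0.32 ± 0.39 in the RAD (adjusted p = 0.658). The MCE call was lost in some fits that left out an array, with an adjusted p of up to 0.134. EXL5 fell, by 0.74 ± 0.16 in the MCE and 0.53 ± 0.16 in the RAD (adjusted p = 0.00153 and 0.0202). Its RAD call was kept in 2 of 6 fits with an array left out, with an adjusted p of up to 0.106, and PHI-1 did not pass in either compartment.

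Of 45 measured arabinogalactan protein genes 4 were members. AGP15 and AGP16, which encode short arabinogalactan peptides, and FLA18, a fasciclin-like protein, were lasting in both, and AGP2 was transient in both. Of the 45, 4 rose and 4 fell from 7 to 24 HAS in the MCE, and 4 rose and 8 fell in the RAD. The shares of all genes are those given for the touch list. AGP15 stood at 6.41, 6.37 and 6.35 in dry seeds and at 11.60, 11.97 and 12.18 in the MCE and 11.73, 12.08 and 12.12 in the RAD at 3 HAS. By 24 HAS its values were 10.20, 10.66 and 10.43 in the MCE and 10.95, 11.29 and 11.07 in the RAD, still far above dry seeds but below all arrays of 3 HAS. It fell by 1.21 ± 0.16 from 7 to 24 HAS in the MCE (limma, adjusted p = 4.3e-06) and by 0.67 ± 0.16 in the RAD (adjusted p = 0.00308). FLA18 moved the other way, with an increase of 0.82 ± 0.21 in the MCE (adjusted p = 0.0059) and 1.29 ± 0.21 in the RAD (adjusted p = 4.6e-05), and both calls were kept whichever array was left out. AGP2 fell by 1.91 in the MCE (adjusted p = 0.000998), while its difference of -0.85 in the RAD had an adjusted p of 0.146.

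Genes of the core response to low oxygen mostly came down from their level at 3 HAS. Oxygen sensing in plants runs through transcription factors of the ERF-VII group, which are degraded when oxygen is present and otherwise turn on fermentation, hemoglobin and feedback genes. Of 41 measured genes of the core hypoxia list, 15 were among the 135. Over the 4 times their median excess over dry seeds was 3.15, 1.56, 0.75 and 0.39 in the MCE, and 3.88, 1.52, 0.92 and 1.0 in the RAD. Of the 15, 9 were transient in the MCE, 7 in the RAD and 6 in both. Lasting were 3 in the MCE, 5 in the RAD and 1, PHI-1, in both. From 7 to 24 HAS, 10 of them fell and 0 rose in the MCE, and 9 fell and 0 rose in the RAD. Of the 41 genes of the whole list 21 fell in the MCE and 18 in the RAD, beside 9.0% and 8.54% of all genes, with 0 higher in either, and the list medians were -0.54 and -0.51. The classic fermentation gene ADH1 was not among the 135, since its mean was already 12.08 in dry seeds and 11.87 and 12.05 at 3 HAS.

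**Figure D2:**
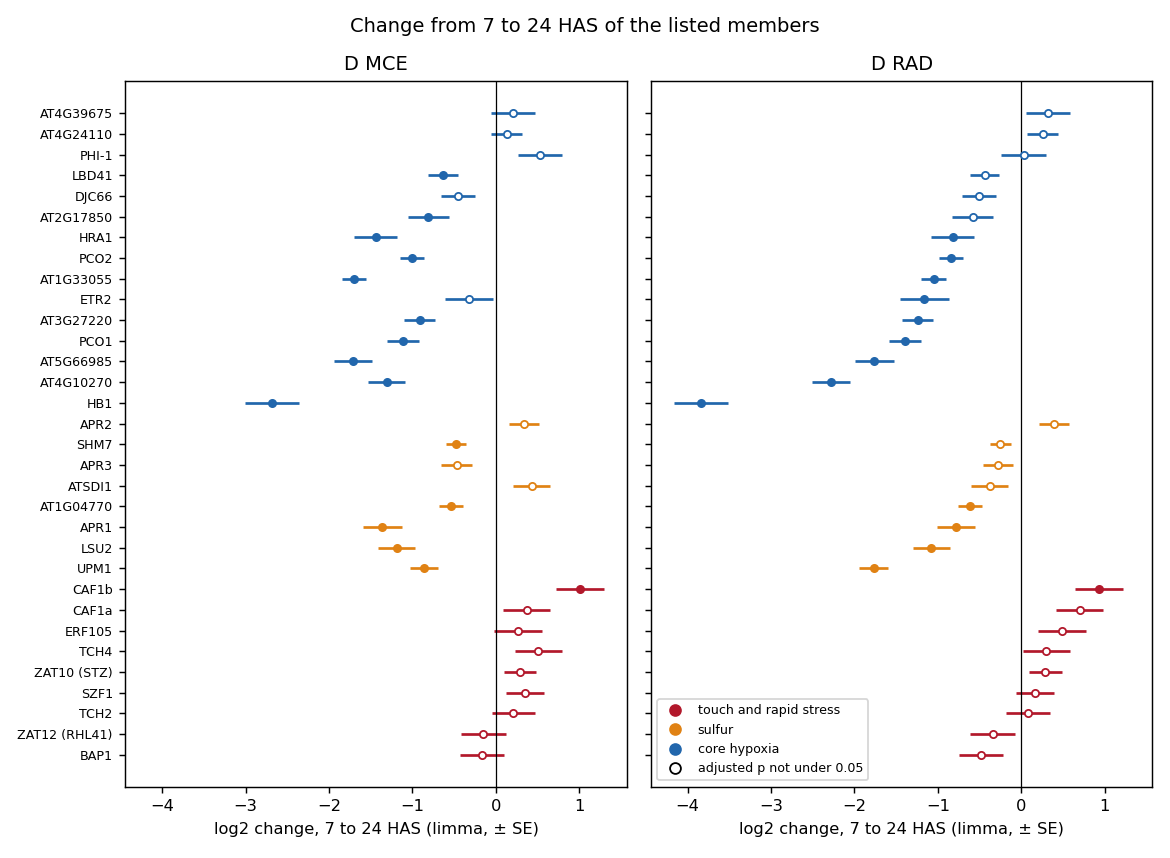
Change from 7 to 24 HAS (log2, limma estimate with bars of 1 SE) in the D MCE and the D RAD for the members on the core hypoxia (blue), sulfur (orange) and touch and rapid stress (red) lists, with filled points where the adjusted p was under 0.05. Among hypoxia genes 10 in the MCE and 9 in the RAD are filled and negative, and of the 9 touch genes only CAF1b is filled.

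LBD41 had log2 values of 7.16, 6.93 and 7.05 in dry seeds and of 11.74, 11.85 and 11.89 in the MCE and 11.69, 11.87 and 11.98 in the RAD at 3 HAS. At 7 HAS they were 9.36, 9.05 and 9.17 in the MCE and 7.41, 8.22 and 7.26 in the RAD. The RAD arrays at 7 HAS were thus all above those of dry seeds, closely so except for the array at 8.22. All MCE arrays at 7 HAS were further above dry seeds. By 24 HAS the MCE mean was 8.56 and the RAD mean 7.19, a difference of 1.37 ± 0.18 (limma, adjusted p = 4.9e-07).

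AT3G10040 (HRA1), which encodes a repressor that restrains the ERF-VII factors, stood at 5.80, 5.10 and 4.55 in dry seeds and at 10.27, 9.76 and 10.18 in the RAD at 3 HAS. At 7 HAS the RAD arrays read 5.0, 5.50 and 5.36, within the range of dry seeds. In the MCE the mean was 9.49 ± 0.30 (SD, n = 3) at 3 HAS, 6.11 ± 0.62 at 7 HAS and 4.68 ± 0.09 at 24 HAS. Later it fell, between 7 and 24 HAS, by 1.44 ± 0.26 in the MCE (limma, adjusted p = 0.000196) and by 0.82 ± 0.26 in the RAD (adjusted p = 0.0235), and the RAD call was lost in some fits with an array left out. The plant cysteine oxidases AT5G15120 (PCO1) and AT5G39890 (PCO2), which mark ERF-VII factors for degradation in the presence of oxygen, were also transient in both. Their late decrease was 1.11 and 1.0 in the MCE and 1.39 and 0.84 in the RAD, with adjusted p values between 5.15e-06 and 0.000122. AT3G27220 and AT2G17850, the other hypoxia genes of this course, were, after the floor, 0.39 and 0 above dry seeds in the MCE at 24 HAS and 0 above them in the RAD. AT4G10270, also on the list, fell by 1.31 in the MCE and 2.28 in the RAD (adjusted p = 0.00013 and 3.7e-08), while AT4G24110 and AT3G13310 (DJC66), on the list too, passed in neither compartment.

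HB1, a non-symbiotic hemoglobin that scavenges nitric oxide, had its highest mean at 7 HAS. Its log2 values were 3.98, 3.3 and 3.66 in dry seeds. Those of the RAD were 6.70, 6.69 and 7.41 at 3 HAS, then 8.47, 8.58 and 8.44, then 7.44, 6.42 and 7.71, and 4.11, 4.84 and 5.01 at 24 HAS. The arrays at 7 HAS were above all others, and those at 24 HAS below all other imbibed ones. In the MCE the mean at 7 HAS was likewise the highest, at 7.37 ± 0.22. HB1 fell between 7 and 24 HAS by 3.84 ± 0.33 in the RAD (limma, adjusted p = 3.78e-09) and by 2.68 ± 0.33 in the MCE (adjusted p = 1.24e-06). The related HB2, which is on none of the lists, was lasting in both, and fell over the same interval by 1.54 in the RAD (adjusted p = 1.63e-05) and 0.67 in the MCE (adjusted p = 0.0418). The MCE call was kept in only 1 of 6 fits with an array left out, with an adjusted p of up to 0.152.

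Some hypoxia genes differed between the compartments at 24 HAS. AT1G33055 had values of 5.55, 5.62 and 5.68 in dry seeds, 7.82, 8.13 and 8.32 in the MCE and 10.01, 10.13 and 10.41 in the RAD at 3 HAS, and 4.23, 4.08 and 4.16 in the MCE and 6.70, 6.82 and 6.51 in the RAD at 24 HAS. At 24 HAS it was below dry seeds in all MCE arrays and above them in all RAD arrays, and the compartments differed by -2.52 ± 0.15 (MCE minus RAD, limma, adjusted p = 3.05e-13). AT4G39675 and AT5G66985 differed at 24 HAS by -2.33 and -1.82 (adjusted p = 4.93e-08 and 3.54e-07). The ethylene receptor gene ETR2 was intermediate in the MCE and lasting in the RAD, and fell from 7 to 24 HAS by 1.16 ± 0.29 in the RAD (adjusted p = 0.00468), while its difference in the MCE was -0.32 (adjusted p = 0.563). EBF1, whose F-box protein removes the ethylene-responsive factor EIN3 and which is not on the list, fell by 0.79 in the RAD (adjusted p = 0.00317) and had a difference of -0.18 in the MCE (adjusted p = 0.639).

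Sulfate assimilation reduces sulfate through adenosine phosphosulfate to sulfide for cysteine, and its genes rise when sulfur is short. A list of 26 measured genes of sulfate assimilation and sulfur deficiency, drawn up after the values had been seen, held 8 of the 135. Their median excess over dry seeds went through 2.97, 1.44, 0.99 and 1.1 in the MCE and through 3.74, 1.66, 1.24 and 1.13 in the RAD. All 3 adenosine phosphosulfate reductase genes were members, APR1 and APR2 as intermediate and APR3 as transient in both compartments. Their sequences are alike, and signal shared between their probes cannot be told apart.

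APR1 had log2 values of 5.45, 5.67 and 5.62 in dry seeds and of 10.89, 10.71 and 10.55 in the MCE and 10.24, 10.43 and 10.24 in the RAD at 3 HAS. At 7 HAS they were 8.76, 8.27 and 8.17 in the MCE and 6.81, 8.07 and 7.52 in the RAD, below all arrays of 3 HAS and above all of dry seeds. APR1 fell between 7 and 24 HAS by 1.36 ± 0.23 in the MCE (limma, adjusted p = 0.000101) and by 0.78 ± 0.23 in the RAD (adjusted p = 0.015), where the call was kept in 3 of 6 fits with an array left out, with an adjusted p of up to 0.156. The differences of APR3 in that interval, -0.47 and -0.28, did not pass (adjusted p = 0.0826 and 0.336), nor did those of APR2, 0.34 and 0.39 (adjusted p = 0.214 and 0.131).

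LSU2, of a small family of proteins induced by low sulfur, had values of 4.63, 5.22 and 5.10 in dry seeds. At 24 HAS it stood at 4.27, 4.62 and 5.04 in the MCE, within or below the range of dry seeds, and at 6.88, 7.21 and 6.84 in the RAD, above it. The compartments differed by -2.22 ± 0.22 at 7 HAS and by -2.33 ± 0.22 at 24 HAS (MCE minus RAD, limma, adjusted p = 6.74e-09 and 2.43e-09). UPM1, which makes the precursor of siroheme, the cofactor of sulfite and nitrite reductase, fell from 7 to 24 HAS by 0.86 ± 0.17 in the MCE and 1.77 ± 0.17 in the RAD (adjusted p = 0.000579 and 2.41e-08). ATSDI1 stayed high, with means of 8.12 ± 0.20 in the MCE and 8.12 ± 0.08 in the RAD at 24 HAS, against 4.67 ± 0.04 in dry seeds. Of the whole list, 2 genes were higher and 9 lower at 24 than at 7 HAS in the MCE and 4 higher and 10 lower in the RAD, beside the shares of all genes given for the touch list, with medians of -0.20 and -0.37. MTO3, a synthase of S-adenosylmethionine that is not on the list, was lasting in both and fell from 7 to 24 HAS by 1.15 in the MCE and 0.67 in the RAD (adjusted p = 3.98e-07 and 0.000385).

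**Figure D3:**
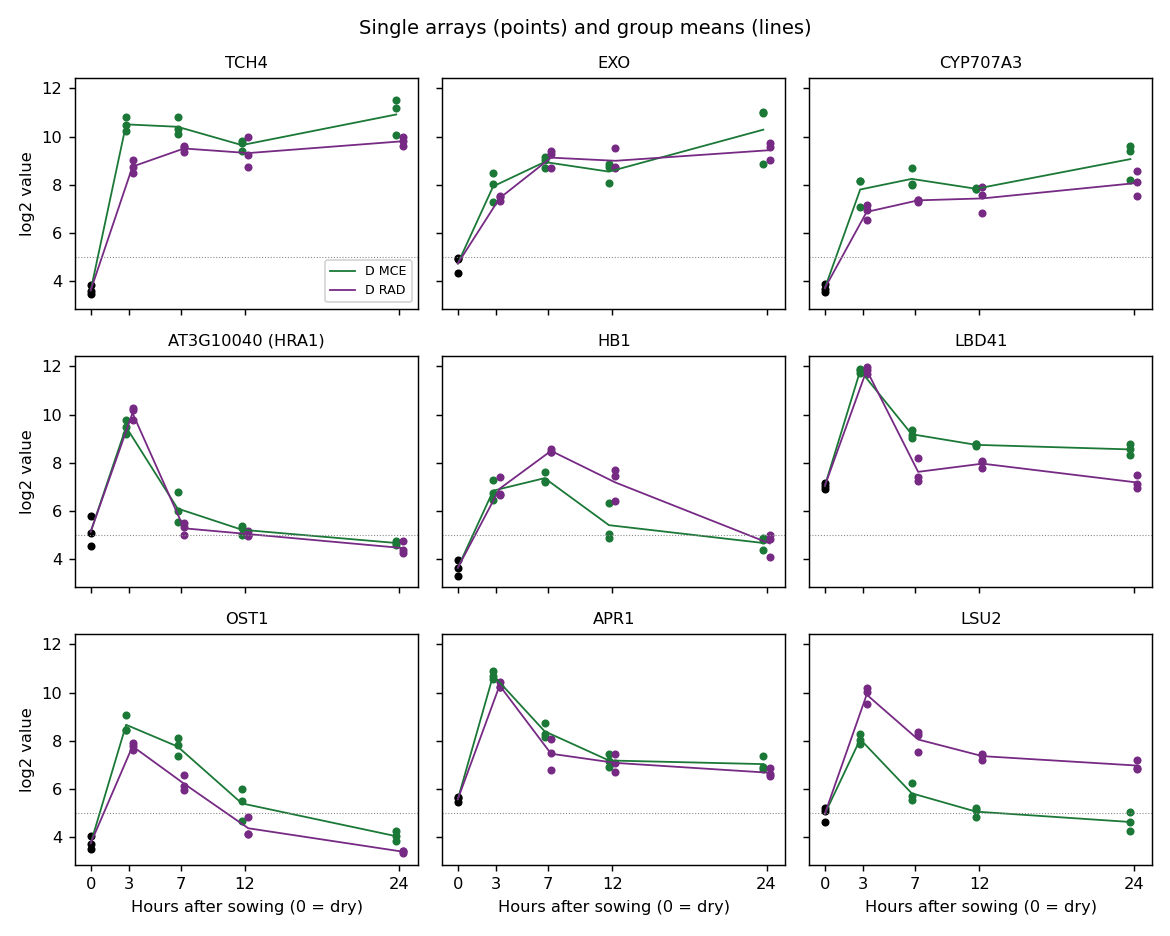
Log2 values of 9 genes on single arrays (points, 3 per group) and group means (lines) in dry seeds (black, at 0) and in the D MCE (green) and D RAD (purple) at 3, 7, 12 and 24 HAS, with a dotted line at 5, the level below which values are near the noise. TCH4, EXO and CYP707A3 are at their 24 HAS level far above dry seeds in both compartments, whereas AT3G10040 (HRA1), HB1 and OST1 are below or near 5 at 24 HAS.

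The hormone abscisic acid (ABA) maintains dormancy, and its level reflects synthesis by NCED enzymes and breakdown by hydroxylases of the CYP707A family. Of 36 measured genes of ABA metabolism and signaling, 4 were members: NCED5, CYP707A3, the phosphatase gene HAI3, whose clade A PP2C product restrains ABA signaling, and OST1, an SnRK2 kinase that carries the signal. A synthesis gene and a breakdown gene were therefore both among the 135, and both were lasting in both compartments. NCED5 had values of 4.44, 4.69 and 4.37 in dry seeds and 7.07, 7.1 and 7.04 in the MCE and 7.58, 7.47 and 7.72 in the RAD at 3 HAS. At 24 HAS it stood at 8.94, 8.56 and 8.35 in the MCE and 8.0, 7.91 and 7.98 in the RAD, so that all arrays were above those of 3 HAS and the MCE lay above the RAD. The difference between compartments at 24 HAS was 0.66 ± 0.16 (limma, adjusted p = 0.00118).

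NCED5 increased between 7 and 24 HAS by 0.54 ± 0.16 in the MCE (limma, adjusted p = 0.0143), a call that was lost without replicate 1 of the MCE at 24 HAS (0.38, adjusted p = 0.12), and its difference in the RAD was -0.24 (adjusted p = 0.323). CYP707A3 had values of 3.56, 3.70 and 3.89 in dry seeds, 7.09, 8.17 and 8.17 in the MCE and 6.94, 7.16 and 6.54 in the RAD at 3 HAS, and 8.20, 9.39 and 9.63 in the MCE and 8.12, 7.53 and 8.59 in the RAD at 24 HAS. The means at 24 HAS were above those of 3 HAS in both compartments, and the MCE and RAD arrays overlapped. Its differences from 7 to 24 HAS, 0.82 ± 0.33 and 0.73 ± 0.33, did not pass the test (adjusted p = 0.0839 and 0.126). Without replicate 1 of the MCE at 24 HAS the difference there was 1.26 (adjusted p = 0.00513).

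OST1 showed the steepest late decrease of the 135 genes in the MCE and a transient course in both compartments. Its values were 3.52, 3.73 and 4.04 in dry seeds, and in the MCE 8.47, 8.46 and 9.07 at 3 HAS, then 8.11, 7.82 and 7.39, then 6.01, 5.52 and 4.70, and 4.27, 4.04 and 3.85 at 24 HAS. The groups of 7, 12 and 24 HAS did not overlap, and at 24 HAS the values were back in the range of dry seeds or just above it. In the RAD they were 7.92, 7.81 and 7.63 at 3 HAS and 3.43, 3.44 and 3.35 at 24 HAS. OST1 fell between 7 and 24 HAS by 3.72 ± 0.25 in the MCE (limma, adjusted p = 1.31e-10) and by 2.82 ± 0.25 in the RAD (adjusted p = 8.13e-09). HAI3 fell over the same interval by 0.62 ± 0.14 in the MCE (adjusted p = 0.00234) and differed by -0.01 ± 0.14 in the RAD (adjusted p = 0.982), but remained 1.90 and 1.45 above dry seeds at 24 HAS. Over the whole ABA list, 3 genes were higher and 6 lower at 24 than at 7 HAS in the MCE, and 8 were higher and 8 lower in the RAD. Of all genes, 9.32% were higher and 9.0% lower in the MCE, and 11.9% and 8.54% in the RAD.

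Outside the lists, the late decreases of at least 3-fold held genes of metabolism and of membrane trafficking. AT3G60750 (TKL1), a transketolase of the plastid, had values of 6.59, 6.37 and 6.62 in dry seeds, 8.30, 8.39 and 8.50 in the RAD at 3 HAS, 9.01, 8.92 and 8.72 at 7 HAS and 6.23, 6.50 and 6.14 at 24 HAS. The level at 7 HAS was above that at 3 HAS in all RAD arrays and at 24 HAS it overlapped that of dry seeds. It fell by 2.59 ± 0.31 in the RAD and by 1.85 ± 0.31 in the MCE from 7 to 24 HAS (limma, adjusted p = 7.22e-07 and 9.41e-05). RFNR1 and RFNR2, the ferredoxin-NADP+ oxidoreductases of non-green plastids, were transient in both, and fell in the RAD by 1.63 and 1.60 (adjusted p = 5.49e-07 and 9.2e-05). In the MCE RFNR1 fell by 1.47 (adjusted p = 3.19e-06), and the difference of RFNR2 was -0.68 (adjusted p = 0.0932).

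PATL1, a lipid-binding protein of membrane trafficking, fell by 2.36 ± 0.27 in the MCE and by 2.15 ± 0.27 in the RAD (limma, adjusted p = 3.77e-07 and 1.13e-06), yet remained intermediate, at 1.17 and 1.16 above dry seeds. TMK1, a receptor-like kinase of auxin signaling, fell by 1.63 and 1.69 (adjusted p = 0.000351 and 0.000185). AT1G72430 (SAUR78) fell by 1.82 in the RAD (adjusted p = 1.8e-07). RFNR1, RFNR2, TMK1 and SAUR78 were named after their values were seen, as were HB2, EBF1, MTO3, APR1, APR2, APR3, EXO, AGP2, AGP16 and FLA18.

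Among the members on no list, BRI1, the brassinosteroid receptor, was lasting in both, with 5.63, 5.89 and 5.77 in dry seeds and 9.66, 9.25 and 8.94 in the MCE and 8.76, 8.66 and 8.76 in the RAD at 24 HAS, all above the dry seed arrays. Its differences from 7 to 24 HAS of 0.37 and 0.44 did not pass (adjusted p = 0.207 and 0.0983). GAE1, which makes a precursor of pectin, and XT1, which adds xylose to xyloglucan, were also lasting in both, and neither passed in either compartment. DIC2, a dicarboxylate carrier of mitochondria, was among the 5 genes with the highest lasting excess, together with PHI-1, TCH4, AT4G27654 and AT2G22880. It stood at 5.17, 4.86 and 5.02 in dry seeds and at 11.38, 11.95 and 11.68 in the MCE and 10.92, 10.64 and 10.85 in the RAD at 24 HAS. BRI1, GAE1 and XT1 were likewise named after their values were seen.

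**Figure D4:**
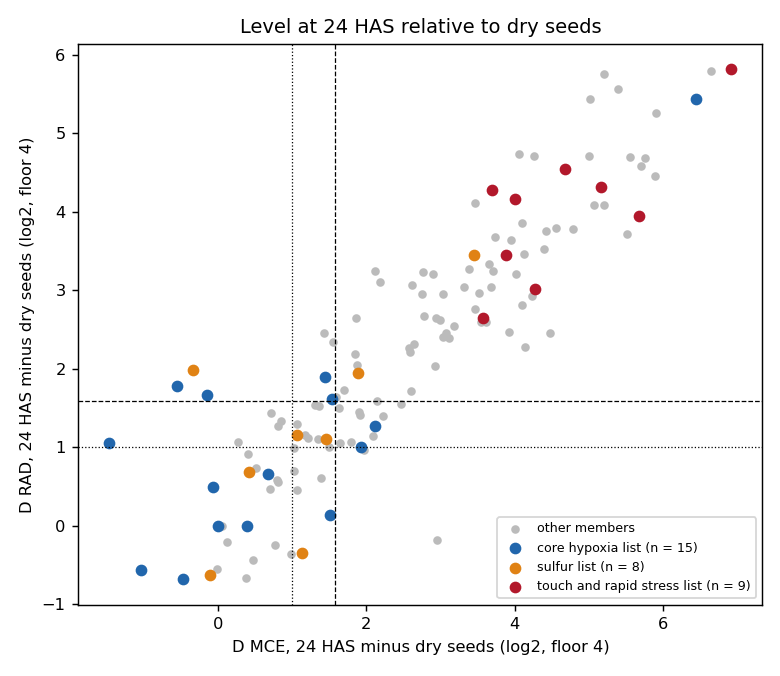
Difference from dry seeds at 24 HAS (log2, floor of 4) in the D MCE (horizontal axis) and in the D RAD (vertical axis) for the 135 genes, coloured by list, with dashed lines at 3-fold and dotted lines at 2-fold. The 9 touch and rapid stress genes lie above 3-fold on both axes, and 6 of the 15 hypoxia genes lie below 2-fold on both.

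The compartments were compared at the times that did not enter the choice. At 7 HAS 44 of the 135 genes were higher and 18 lower in the MCE relative to the RAD (limma, adjusted p under 0.05), beside 20.1% and 20.5% of all genes. At 12 HAS 30 were higher and 37 lower, beside 20.8% and 20.9%. At 24 HAS 54 were higher and 18 lower, beside 18.9% and 20.5%. Among the same 11717 genes these last shares were 31.0% and 30.4%. The median difference of the 135 genes, MCE minus RAD, was 0.16, -0.02 and 0.34 at 7, 12 and 24 HAS, beside -0.06, -0.08 and -0.04 for all genes. At 24 HAS the MCE exceeded the RAD at least 3-fold for 5 genes, beside 2.97% of all genes, and the RAD exceeded the MCE at least 3-fold for 4, beside 2.02%.

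The 5 higher ones were NPR3, BME3, CAMBP25, AT1G74450 and CAF1b, and the 4 lower ones AT1G33055, AT4G39675, LSU2 and AT5G66985. NPR3, a receptor of salicylic acid, had values of 5.31, 5.26 and 5.90 in dry seeds, 8.09, 8.55 and 8.70 in the MCE and 5.59, 4.95 and 5.40 in the RAD at 24 HAS. Its RAD arrays overlapped those of dry seeds, and its MCE arrays were all higher, by 3.13 ± 0.24 on average over the RAD (limma, adjusted p = 7.02e-11). BME3, a GATA transcription factor that promotes germination in Arabidopsis, stood at 3.89, 4.89 and 4.68 in dry seeds, 8.01, 9.49 and 9.36 in the MCE and 7.12, 6.61 and 7.1 in the RAD at 24 HAS. The MCE exceeded the RAD by 2.01 ± 0.32 (adjusted p = 1.02e-05), although one MCE array lay well below the others. CAMBP25, a calmodulin-binding protein, and AT1G74450 differed by 1.87 and 1.81 (adjusted p = 2.93e-07 and 2.38e-06). All 9 of these differences kept an adjusted p under 0.05 whichever array was left out. The change from 7 to 24 HAS itself differed between the compartments for 8 genes. It was higher in the MCE for 7, among them NPR3 and UPM1, beside 1.92% of all genes, and lower for 1, AHL22, beside 2.48%.

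Of the 638 measured transcription factor genes found by symbol, 6 were members, which is 0.94% beside 0.633% of all genes. They were STZ, RHL41, AT5G51190 (ERF105), BME3, bZIP2 and LBD41, of which all but LBD41 were lasting in both compartments. The search by symbol misses regulators without a family symbol, such as the repressor AT3G10040 (HRA1), which was transient in both. In bZIP2 the mean was 3.13 in dry seeds and 6.68 in the MCE and 7.02 in the RAD at 3 HAS, and it fell by 0.50 from 7 to 24 HAS in the RAD (limma, adjusted p = 0.0493), a call lost in every fit with an array left out. The lists of jasmonate, heat shock, gibberellin, nucleolus, detoxification and seed maturation genes held none of the 135, the cell wall list 1 (TCH4) and the nitrate list 1 (UPM1). In all, 31 of the 135 genes were on a list fixed with the study design, and 104 on none. On chromosome 4 the members AT4G27652, AT4G27654 and AT4G27657 were direct neighbours, all lasting in both, and AT4G10260 and AT4G10270 had 1 gene between them.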

How the data were processed

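The authors hybridized RNA to Affymetrix ATH1 chips, applied RMA to a larger set of chips that included these, under a custom definition of probe sets with 1 value per gene, and deposited the result as log2 values, which were not changed. The chip file names no genome build, and gene symbols came from a TAIR10.1 gene table that matched 133 of the 135 and 21205 of all 21313 genes. All 27 columns were used, and 0 columns of other samples were present. The number of arrays and the chip noise below about 5 (log2) limit the precision, and depth has no meaning for arrays.

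The 135 genes and all gene lists were chosen with earlier results of these data known. The sulfur, EXORDIUM and arabinogalactan lists were drawn up after the values had been seen. Group means below 4 were raised to 4 for fold rules, and limma estimates carry no floor. The test was limma's moderated test, fitted once to the 9 groups (27 arrays). P-values were adjusted by Benjamini-Hochberg over 21313 genes within each comparison. Residual degrees of freedom numbered 18, with 7.246 added by the prior. It was tested on simulated data: of 200 genes, among 21313, given a log2 change of 1.5 from D MCE 7 HAS to D MCE 24 HAS, 198 (99%) were recovered and 16 others called. The changed genes were drawn from the brighter ones in the MCE at 7 HAS, and the simulated noise was independent between arrays. Smaller changes and dim genes were not simulated, so their recovery is not known.

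Genes were named by rule: the 10 largest rises, the 5 largest lasting and 5 largest transient, the largest 3 past the 3-fold test in each direction from 7 to 24 HAS and between compartments at 24 HAS, 3 on each side of the threshold, and members of the fixed lists. Genes named outside the rule stand in a count of 5 or fewer, or are stated as such.

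Replicates are numbered 1 to 3 in each group without a stated meaning. Deviations of same-numbered arrays correlated between 0.0525 and 0.533 for the MCE at 7 and 24 HAS. They correlated between 0.0812 and 0.154 for the RAD at 7 and 24 HAS and between -0.0542 and -0.00982 for MCE and RAD at 24 HAS. By the rule used, the numbers were not taken to pair the arrays in these comparisons. For the MCE at 7 and 24 HAS a partial pairing remains possible, and the main fit has no block. For the MCE at 7 and 12 HAS and at 12 and 24 HAS every correlation was at least 0.21, which pairs them by the rule used, and a fit of the MCE alone with the replicate number as a block was run.

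Alternatives were other floors, thresholds and summaries, renormalization, a filter on dim genes, an intensity trend, array weights, the groups alone, the methods' t-test, the replicate block, and each array left out. Promoter sequences were not analysed here. The tools were limma 3.58.1 in R 4.3.3, and numpy 2.4.6, pandas 2.3.3 and matplotlib 3.10.9 in Python 3.11.15.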

Additional observations from a re-analysis of the deposited data

Results flagged for a closer look

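For 8 of the 135 genes the change from 7 to 24 HAS differed between the compartments in the test of that difference itself (MCE change minus RAD change, limma, Benjamini-Hochberg adjusted over all genes, n = 3 arrays per group). The MCE change lay above the RAD change in 7 genes, beside 1.92% of all genes, and below it in 1, beside 2.48%. ARO2, an armadillo repeat protein, differed by 1.19 ± 0.26 (adjusted p = 0.007), since it changed by -0.14 in the MCE and -1.32 in the RAD. It was the only 1 of the 8 called in all 12 fits that left out an array. The count of 7 fell to 1 without replicate 2 of the RAD at 7 HAS, of the MCE at 7 HAS or of the MCE at 24 HAS, and without replicate 3 of the RAD at 24 HAS.

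In NPR3 the difference was 1.25 ± 0.35 (adjusted p = 0.0365), with changes of -0.14 in the MCE and -1.39 in the RAD. UPM1 differed by 0.91 (adjusted p = 0.0286), AT1G50040 by 1.09 (0.0396), AT1G72430 (SAUR78) by 0.97 (0.0477) and AT3G02910 by 0.77 (0.0437), and in these 4 the change was less negative in the MCE. NCED5 differed by 0.78 (adjusted p = 0.0396), with 0.54 in the MCE and -0.24 in the RAD. AHL22, an AT-hook protein, was the gene with the opposite sign, at -0.67 (adjusted p = 0.0295), with -0.13 in the MCE and 0.54 in the RAD. These 7 were called in 3 to 6 of the 12 fits, with adjusted p values of up to 0.153. RNA isolation differed between the compartments in the same way at both times, and its part in these differences was not tested.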

How the results depend on the processing

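The number of genes was 129 to 148 when single arrays or replicate numbers were left out in choosing them, with 69 to 84 lasting and 18 to 23 transient in both. With a 2-fold rise 312 genes were chosen, of which 124 were lasting and 72 transient, and with a 5-fold rise 74, of which 44 were lasting and 10 transient.

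From 7 to 24 HAS in the MCE, the genes higher numbered 32 with array weights, 6 with the groups alone, and 0 by the methods' t-test after adjustment or 5 before it, against 12. By that adjusted t-test 3 were lower, all 3 at least 3-fold. In the RAD the genes higher numbered 7 with array weights, 10 with the groups alone, and 2 and 9 by the t-test after and before adjustment, against 4, and 25 were lower by the adjusted t-test. At 24 HAS the adjusted t-test called 24 genes higher and 9 lower in the MCE than in the RAD. The compartments' changes differed upward in 16 genes and downward in 3 with array weights, 4 and 0 with the groups alone, and 4 upward after renewed quantile normalization. Leaving out an array gave 5 to 19 higher and 33 to 41 lower for the MCE (0 to 1 and 5 to 9 at least 3-fold), 3 to 6 and 36 to 46 for the RAD (0 to 0 and 9 to 14), 43 to 57 and 13 to 17 between compartments (4 to 7 and 4 to 4), and 1 to 8 and 0 to 2 for the difference of changes. The cause was not tested.

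With the replicate number as a block, 15 genes were higher and 39 lower in the MCE, 6 and 44 were so in the RAD, 56 and 19 between compartments, and 6 and 1 for the difference of changes. For the steps in the MCE, chosen after seeing the data, the MCE alone with the replicate block gave 57 lower and 1 higher from 7 to 12 HAS and 30 higher and 5 lower from 12 to 24 HAS, against 36 and 0, and 15 and 2, without the block. Leaving out 1 array, the lower calls from 7 to 12 HAS in the MCE numbered 25 to 42 and the higher calls from 12 to 24 HAS 5 to 33. In the RAD the lower calls numbered 10 to 17 from 7 to 12 HAS and 14 to 22 from 12 to 24 HAS. For single named genes no alternative reversed the direction of a change that was called in the main fit or in the alternative. Sign changes between values not called in either were counted as kept. Of their values under alternatives, 1199 kept their side of the threshold, 85 lost a call and 32 gained one. Precision is limited by 3 arrays per group and by the chip noise.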

Other observations

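Some other members have known roles in signaling. THE1, a receptor kinase that monitors the cell wall, RALFL33, a signaling peptide of the RALF family, and MKK4, a kinase of stress MAP kinase cascades, were lasting in the MCE and intermediate in the RAD. Their late differences did not pass the test in either compartment, with limma's adjusted p between 0.0544 and 0.841. SAG21, a late embryogenesis-like protein of mitochondria, was lasting in both and fell from 7 to 24 HAS by 1.19 in the MCE (adjusted p = 1.31e-05) and 0.55 in the RAD (adjusted p = 0.022). Its RAD call was kept in 3 of 6 fits with an array left out, with an adjusted p of up to 0.0905. FBA8, a fructose-bisphosphate aldolase, had values of 5.98, 6.23 and 6.38 in dry seeds, 7.99, 8.19 and 7.94 in the MCE at 3 HAS and 10.43, 10.07 and 9.68 at 7 HAS, so that all arrays of 7 HAS were above those of 3 HAS. It fell in the RAD from 7 to 24 HAS by 1.21 ± 0.30 (adjusted p = 0.00389), while its difference in the MCE was -0.41 (adjusted p = 0.439).

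AT2G07696 was 1 of the 4 genes that increased from 7 to 24 HAS in the RAD, by 1.07 (adjusted p = 0.00539), and it increased in the MCE by 1.18 (adjusted p = 0.00267). It lies on chromosome 2 in a copy of mitochondrial DNA, and signal from the organelle cannot be told apart from its own. The genes of both paragraphs were named after their values were seen.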
